A study of Mus musculus with 4 samples.

Results

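Rab GTPases are small GTP-binding proteins that give membranes their identity. Bound to GTP, each sits through a prenyl tail on its own organelle and recruits the tethers, motors and fusion factors that move and join vesicles. Exchange factors load them with GTP, activating proteins speed GTP hydrolysis, and GDP dissociation inhibitors lift the spent form off the membrane. In neutrophils and their precursors Rab proteins are known for the delivery of newly made proteins from the Golgi, for phagosome maturation and for the release of granules.

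Expression of the Rab family was compared in Ly6G+ myeloid-derived suppressive cells (MDSCs) from lal-/- and lal+/+ bone marrow. Members were the genes whose symbol is Rab, a number and at most 1 letter, on a probe set that names exactly 1 gene, and the brightest probe set stood for a gene with several. This rule gave 59 genes on 62 probe sets, of 19938 genes measured. By known role, 16 were placed with the secretory route, 22 with endosomes, 12 with granules and related organelles, and 9 with other or less settled roles.

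The lal-/- mice lack lysosomal acid lipase (LAL), which frees cholesterol and fatty acids from neutral lipids in the lysosome, and the lal+/+ mice are wild type. Both were 5 months old and backcrossed onto FVB/N, and 2 arrays were made for each genotype (Affymetrix Mouse Gene 1.0 ST). No cell type-specific driver is named for the knock-out. The sources do not say which mice went into which array, so p-values measure the spread between arrays, which may be technical. Cells were enriched with an anti-Ly6G antibody on magnetic beads by the study's methods, whereas the labels give them as CD11b and Gr-1 positive.

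Values are log2 levels after quantile normalization. A gene was called where limma gave a Benjamini-Hochberg adjusted p below 0.05, taken over all single-gene probe sets, together with a change of 2-fold or more. With 2 arrays against 2 an exact permutation test cannot give a two-sided p under 0.333. The level of silent genes was taken from 1035 probe sets of olfactory receptors, whose 95th percentile was 6.29 in lal-/- cells and 6.79 in lal+/+ cells. Where the mean of one genotype lay below that level, the change of a called gene is given as a bound against it ("at least"), beside the fitted fold change, and fitted values of such genes carry no order.

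Lipa, the gene of LAL, read 7.37 and 7.49 on the lal-/- arrays, against 9.50 and 9.05 on the lal+/+ arrays, and was lower in lal-/- cells by limma (adjusted p = 4.17e-04). Ly6g, of the antigen used for selection, read 12.91 and 12.84 in lal-/- cells, against 10.19 and 9.80 in lal+/+ cells, above the silent level in both. Markers of other cells and stages moved with genotype. The 7 measured B cell markers were all lower (mean log2 level 5.84 to 5.95 on lal-/- arrays, 9.71 to 9.93 on lal+/+ arrays), and 4 of them, Ms4a1, Cr2 and Ebf1 included, lay below the silent level in lal-/- cells. Of 10 monocyte and macrophage markers 8 were lower (6.57 to 6.62 on lal-/- arrays, 8.73 to 8.89 on lal+/+ arrays), and 4, Mrc1, Spic and C1qc included, lay below the silent level in lal-/- cells. The other 2 passed the adjusted p of limma under 2-fold. C1qa went down (log2 fold change -0.87) and Ccr2 went up (fitted 0.83, with the lal+/+ mean below the silent level). All 5 primary granule markers, Mpo and Ctsg included, were higher (8.75 to 8.83 on lal-/- arrays, 5.66 to 5.68 on lal+/+ arrays), as were 5 of 7 of secondary granules and 3 of 4 of cell division, and of 6 markers of mature neutrophils 1 was higher and 2 were lower. Of 6 T and NK cell markers 3 were lower and 1, Cd3d, was higher. The other 2 passed the adjusted p of limma under 2-fold. Nkg7 went up (0.87) and Cd5 went down (fitted -0.55, with the lal-/- mean below the silent level). The mean log2 level of the 6 was 7.93 to 7.99 on lal-/- arrays and 8.71 to 8.86 on lal+/+ arrays. Cd3d itself read 12.74 and 12.72 in lal-/- cells, against 10.37 and 10.25 in lal+/+ cells. Of 4 erythroid markers 0 were called. Among them Alas2 passed the adjusted p of limma (0.0122) with a change under 2-fold (log2 fold change -0.66). The part of these shifts in the Rab values was not tested, and in such bulk RNA fewer cells of a type and less RNA per cell cannot be told apart.

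In lal-/- MDSCs 15 of 59 Rab genes were higher and 1 was lower, and 43 were not called. An ordinary linear model without limma's moderated variances called 0 Rab genes and 0 of all genes. In that model 31 of 59 Rab genes and 5691 of all 19938 genes had an unadjusted p below 0.05. With all arrays set to the same median 24 Rab genes were higher, beside 13.1% of all genes. Among all 19938 genes 7.56% were higher and 3.24% were lower. The higher genes were Rab1b, Rab18 and Rab43 of the secretory route, Rab5b, Rab5c, Rab22a, Rab31, Rab11b, Rab35 and Rab24 of endosomes and autophagy, Rab3d, Rab37 and Rab27a of granules, and Rab28 and Rab23, which are known from cilia. The lower gene was Rab30, of the Golgi. The median log2 fold change was 0.58 over the 59 Rab genes and 0.08 over all genes. A positive sign was found in 53 of the 59, beside 11909 of all 19938 genes.

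Both lal-/- arrays read above both lal+/+ arrays in 47 Rab genes and below them in 4, while the genotypes overlapped in 8. The same held for 41.6% (above) and 24.1% (below) of all genes. A further 19 Rab genes passed the adjusted p with a change of less than 2-fold, all of them upward (log2 fold change 0.40 to 0.9991). At this adjusted p with no fold threshold, 57.6% of Rab genes were higher, beside 19.8% of all genes. The remaining 24 Rab genes did not pass the adjusted p, and their log2 fold changes lay between -0.49 and 0.41. Of the 19, Rab12, Rab15, Rab34 and Rab40c lay below the silent level in both genotypes, as did 18 of the 24, and the levels of these 22 genes are not told apart from those of silent genes.

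**Figure D1:**
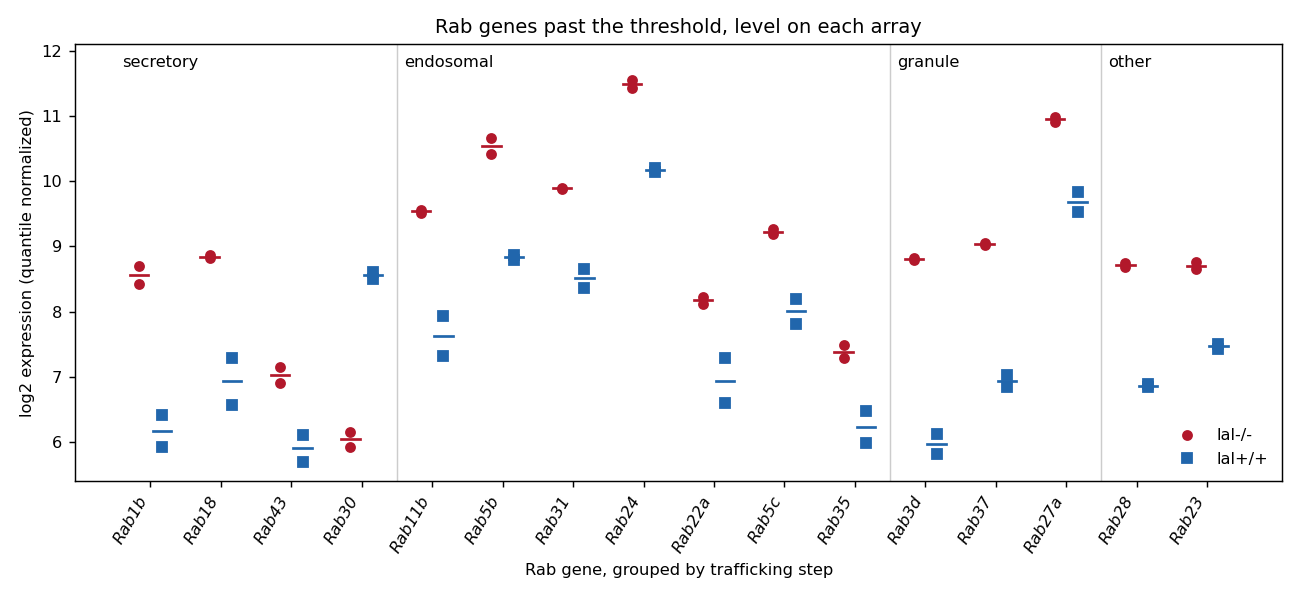
Log2 level of the 16 called Rab genes on each of the 4 arrays, grouped by trafficking step, with lal-/- arrays as red circles left of lal+/+ arrays as blue squares and a short line for each genotype mean. In 15 genes both circles lie above both squares, and Rab30 lies the other way (6.16 and 5.92 in lal-/- cells, 8.61 and 8.51 in lal+/+ cells).

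The early endosome had 4 higher of 7 genes (median log2 fold change 1.22). Of the 12 genes of ER and Golgi 3 were higher and 1 lower (median 0.66). None of the 4 genes of transport from the Golgi to the plasma membrane was called by limma, though Rab8a, Rab8b and Rab13 passed the adjusted p without the 2-fold change (median 0.66 over the 4). Of 9 genes of recycling endosomes 2 were higher (median 0.40), of 6 of late endosomes, lysosomes and autophagy 1 (0.47), of 12 of granules 3 (0.28) and of 9 others 2 (0.21). Whether the steps differ from each other was not tested.

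**Figure D2:**
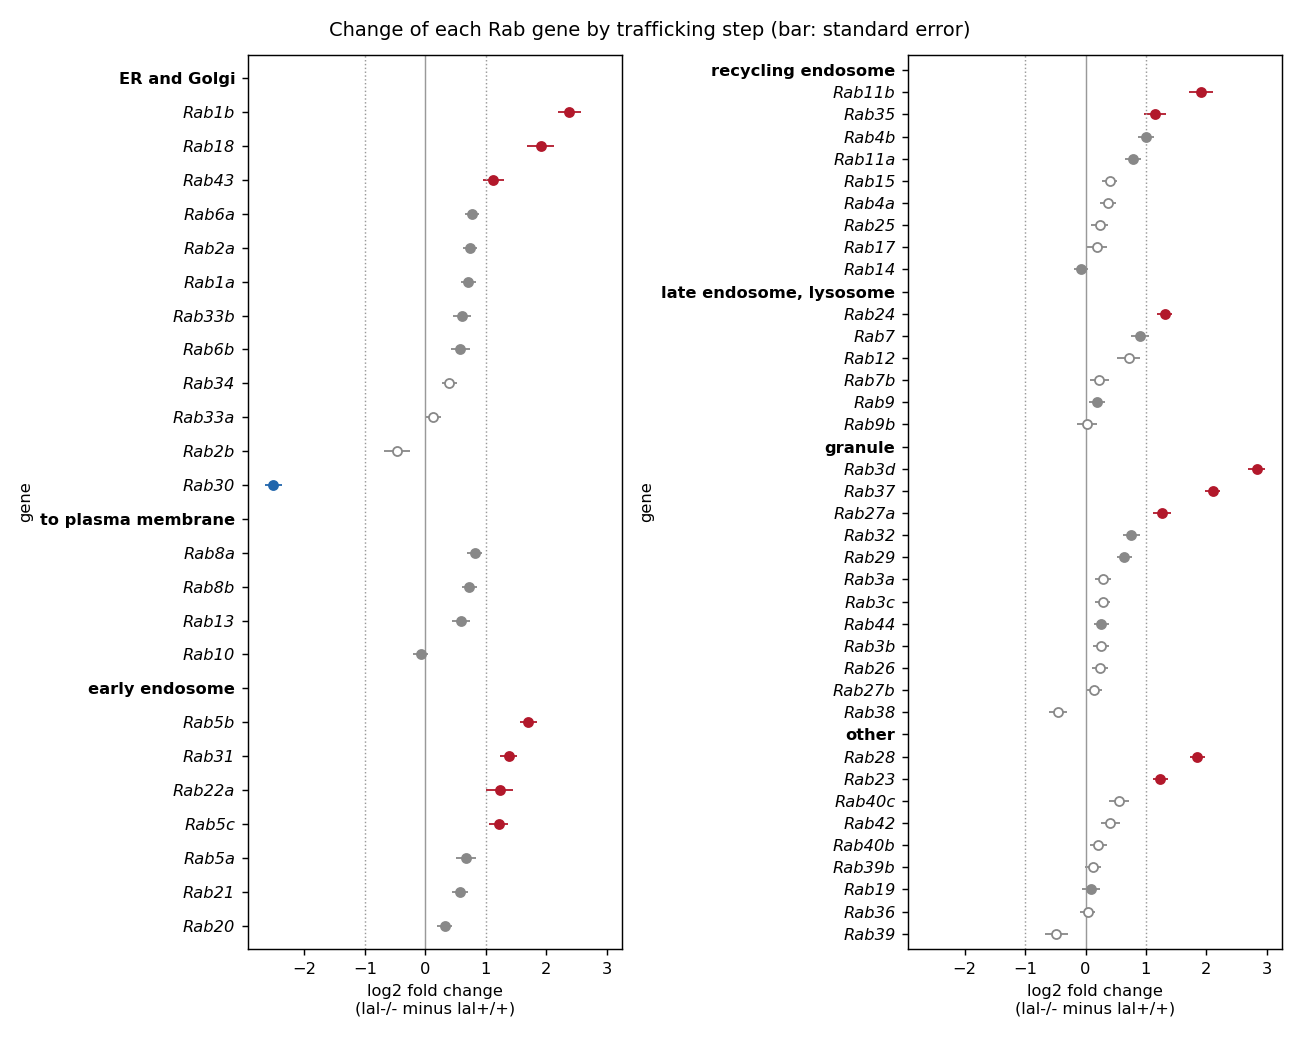
Log2 fold change (lal-/- minus lal+/+) of the 59 Rab genes with the standard error of the fit, sorted within each step, red for higher, blue for lower and gray for not called, with dotted lines at 2-fold and open points for genes below the silent level in both genotypes. The points lean to the right of 0 in every step. The point of Rab3d is plotted farthest right (2.83) and that of Rab30 farthest left (-2.52). Each has 1 genotype below the silent level, so these fitted values carry no order.

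The region before the start site is shown for 1 called gene each of the secretory, endosomal and granule groups, the one with the largest fitted change among those with a RefSeq promoter. For Rab3d and Rab1b the lal+/+ mean lay below the silent level, so their rank is not settled. The rank of Rab11b is not settled either. Its brighter probe set gave 1.91, and its dimmer one gave 0.48 and was not called (adjusted p = 0.0568 by limma). The place of these probe sets in the genome was not checked. The chr17 promoter shown may therefore not belong to the called one. RefSeq (build GRCm38.p6) gave promoters for 48 of the 59 genes, some with several starts. Each run holds the 200 bases before the start, 5′ to 3′ on the strand of the gene, and capitals mark GGGCGG or its reverse complement CCGCCC, the GC box read by factors of the Sp family, a motif looked up after the data were seen.
Rab3d, chr9:21918184-21918383, minus strand: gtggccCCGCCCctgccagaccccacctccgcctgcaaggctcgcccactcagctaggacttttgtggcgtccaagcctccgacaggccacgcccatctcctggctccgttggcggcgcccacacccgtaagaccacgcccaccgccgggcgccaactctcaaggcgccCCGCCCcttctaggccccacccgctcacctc
Rab1b, chr19:5106997-5107196, minus strand: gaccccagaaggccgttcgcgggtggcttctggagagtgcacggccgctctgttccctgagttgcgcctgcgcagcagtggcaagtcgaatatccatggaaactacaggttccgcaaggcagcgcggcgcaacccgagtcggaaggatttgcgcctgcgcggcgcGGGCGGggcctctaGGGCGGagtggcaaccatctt
Rab11b, chr17:33760487-33760686, minus strand: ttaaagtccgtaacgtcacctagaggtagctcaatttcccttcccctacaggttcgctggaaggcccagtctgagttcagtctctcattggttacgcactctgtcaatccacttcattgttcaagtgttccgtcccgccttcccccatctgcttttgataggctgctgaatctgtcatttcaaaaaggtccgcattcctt
The promoters of Rab3d and Rab1b each hold 2 GC boxes and that of Rab11b has no match. A GC box stood in these 200 bases in 63.3% of the 60 Rab promoters and in 31.0% of all 32851 promoters in the table.

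A motif of lysosomal genes, CACGTG, which the factor TFEB and its relatives bind, was looked for from 250 bases before to 50 bases after the start. It was found in 3 of 13 Rab genes that were higher and have a promoter here (Rab23, Rab24 and Rab27a), and in 3 of 35 that were not called (Rab5a, Rab20 and Rab21), against 8.09% of the 27025 genes in the table. The 30 bases around each match are shown to compare the flanks, with the motif in capitals.
Rab24, chr13:55321961-55321990, minus strand: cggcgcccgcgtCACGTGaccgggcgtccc
Rab23, chr1:33719666-33719695, plus strand: cttcagtgctacCACGTGagtctcaggtgg
Rab27a, chr9:73063898-73063927, plus strand: cttgCACGTGctcctccgtctgtctgaacc
Rab20, chr8:11478669-11478698, minus strand: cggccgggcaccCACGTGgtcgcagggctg
Rab21, chr10:115315604-115315633, minus strand: gcccaccgcggtCACGTGacgaggggtgtg
Rab5a, chr17:53478987-53479016, plus strand: aattggagaagaCACGTGacgcaaccccac
Rab5a, chr17:53479127-53479156, plus strand: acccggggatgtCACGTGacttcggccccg
CACGTG reads the same on both strands. With GT before and AC after it, a longer palindrome looked up after the data were seen, it stood in the promoters of Rab5a, Rab21 and Rab24 and in 0.326% of all promoters. These matches describe the sequence and are not shown to be bound. A second motif, GAGGAAGT or its reverse complement, the core of PU.1-type sites, stood in the promoters of Rab2b and Rab32, in 3.20% of all promoters and in 0 of the 18 promoter windows of higher Rab genes.

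In the secretory route, Rab1b, which drives transport from the ER to the Golgi, read 8.42 and 8.70 on the lal-/- arrays, against 6.42 and 5.93 on the lal+/+ arrays. It was at least 3.42-fold higher in lal-/- cells (fitted log2 fold change 2.39, SE 0.19, adjusted p = 2.44e-04), since lal+/+ cells lay below the silent level. Its close relative Rab1a read 12.38 and 12.34 in lal-/- cells, against 11.68 and 11.61 in lal+/+ cells, which differ by 0.71 (SE 0.12, adjusted p = 0.00470), under the 2-fold threshold. The genotypes did not overlap in either gene.

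Rab18, found on the ER and on lipid droplets, read 8.82 and 8.86 in lal-/- cells, against 7.29 and 6.57 in lal+/+ cells, which is 3.75-fold (log2 fold change 1.91, SE 0.23, adjusted p = 0.00109). The lal+/+ arrays differed from each other by more than the lal-/- arrays did. The one at 6.57 lay below the silent level, so the size of the change of Rab18 is uncertain. Rab43, of ER to Golgi transport, read 7.15 and 6.91 in lal-/- cells, against 6.11 and 5.70 in lal+/+ cells, and was at least 1.18-fold higher (fitted log2 fold change 1.13, SE 0.17, adjusted p = 0.00319). Without lal+/+ replicate 2 the value of Rab43 was 0.96 and without lal-/- replicate 1 it was 0.98, both below 2-fold.

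Rab30, a Golgi protein, was the 1 member that fell. It read 6.16 and 5.92 in lal-/- cells, below the silent level, against 8.61 and 8.51 in lal+/+ cells. Its level was at least 4.83-fold lower in lal-/- cells (fitted log2 fold change -2.52, SE 0.14, adjusted p = 7.77e-05). The markers of B cells (7 of 7) and of monocytes and macrophages (8 of 10) were lower on the same arrays, and their part in the fall of Rab30 was not tested.

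Other Rabs of this route passed the adjusted p with less than a 2-fold change. Rab2a, which acts between ER and Golgi, read 12.35 and 12.30 in lal-/- cells, against 11.58 and 11.59 in lal+/+ cells (0.74, adjusted p = 0.00391). A dimmer probe set of Rab2a gave 0.60 (adjusted p = 0.0098 by limma). Rab6a, of transport within the Golgi and back to the ER, had 0.77 (adjusted p = 0.00330), and Rab8a and Rab8b, which carry cargo to the plasma membrane, had 0.82 and 0.73 (adjusted p at most 0.00507 by limma). Rab6b, Rab13 and Rab33b passed too, with fitted values of 0.58, 0.59 and 0.61 that are uncertain in size, as the lal+/+ mean lay below the silent level, and Rab2b, Rab33a and Rab34 lay below it in both genotypes. Rab10, also of exocytosis, did not pass (-0.07, adjusted p = 0.701) and read 10.37 and 10.42 in lal-/- cells, against 10.41 and 10.53 in lal+/+ cells. The scaling of the arrays decided the sign of Rab10, which was 0.56 with all arrays set to the same median and 0.38 with the values as deposited. Rab2a, Rab6a, Rab8a and Rab8b reached the 2-fold threshold with the common median (1.0018, 1.33, 1.43 and 1.07), and Rab6a and Rab8a also with the values as deposited (1.15 and 1.25).

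Among the early endosome Rabs, the Rab5 proteins direct the fusion of incoming vesicles. Rab5b read 10.41 and 10.66 in lal-/- cells, against 8.87 and 8.79 in lal+/+ cells, and was 3.26-fold higher (log2 fold change 1.70, SE 0.14, adjusted p = 2.44e-04). A second probe set of Rab5b gave 1.70 as well (SE 0.12, adjusted p = 1.81e-04). Rab5c read 9.26 and 9.18 in lal-/- cells, against 8.20 and 7.82 in lal+/+ cells, and was 2.32-fold higher (adjusted p = 0.00157). For Rab5a the values were 7.89 and 8.06 in lal-/- cells, against 7.51 and 7.09 in lal+/+ cells, which differ by 0.67 (SE 0.17, adjusted p = 0.0239), under the threshold. All 3 Rab5 genes had lal-/- arrays above lal+/+ arrays, and a difference between their changes was not tested.

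Rab22a and Rab31 belong to the same subfamily as Rab5, with roles in early endosomes and in traffic between the trans-Golgi and endosomes. Rab31 read 9.90 and 9.88 in lal-/- cells, against 8.65 and 8.36 in lal+/+ cells, and was 2.61-fold higher (log2 fold change 1.38, SE 0.14, adjusted p = 5.87e-04). Rab22a read 8.12 and 8.23 in lal-/- cells, against 7.28 and 6.60 in lal+/+ cells (1.23, SE 0.22, adjusted p = 0.00606). The wide spread of its lal+/+ arrays mattered, as Rab22a was 0.94 and under 2-fold without lal+/+ replicate 2. That array, at 6.60, lay below the silent level. Rab21, of integrin and early endosome traffic, had 0.57 (adjusted p = 0.0180) and 1.06 with a common median, and Rab20, of phagosomes, had 0.32 (adjusted p = 0.0872). Rab20 passed the adjusted p with a common median (0.74) and as deposited (0.56), still under 2-fold.

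Of the recycling Rabs, Rab11b, which returns cargo from recycling endosomes to the surface, read 9.51 and 9.56 in lal-/- cells, against 7.94 and 7.31 in lal+/+ cells, and was 3.76-fold higher (log2 fold change 1.91, SE 0.21, adjusted p = 7.24e-04). A dimmer probe set of Rab11b gave 0.48 (SE 0.16, adjusted p = 0.0568), so the probe sets of this gene did not give the same call. Whether both lie at the Rab11b locus was not checked. Rab11a read 11.01 and 11.10 in lal-/- cells, against 10.35 and 10.20 in lal+/+ cells (0.78, adjusted p = 0.00414), and passed 2-fold with the same median on all arrays (1.39) and as deposited (1.21). The genotypes did not overlap in Rab11a or in the brighter probe set of Rab11b.

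Rab35, of fast recycling and cell shape, read 7.28 and 7.49 in lal-/- cells, against 6.48 and 5.99 in lal+/+ cells, and was at least 1.51-fold higher (fitted log2 fold change 1.15, SE 0.19, adjusted p = 0.00388). It fell to 0.96 and out of the calls without lal+/+ replicate 2. Rab4b, of the rapid recycling route, read 8.51 and 8.35 in lal-/- cells, against 7.45 and 7.42 in lal+/+ cells. Its value of 0.9991 (SE 0.13, adjusted p = 0.00139) lay just under the 2-fold threshold. It passed with the same median on all arrays (1.38), with the values as deposited (1.20), and without lal+/+ replicate 1 (1.05), lal+/+ replicate 2 (1.03) or lal-/- replicate 2 (1.03). Rab14, of traffic between Golgi and endosomes and of phagosomes, read 10.73 and 10.74 in lal-/- cells, against 10.77 and 10.85 in lal+/+ cells. Its change of -0.07 (adjusted p = 0.687) turned to 0.52 with a common median and to 0.34 with the values as deposited.

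Of the late endosomal members, Rab7, the Rab of late endosomes and lysosomes, read 11.97 and 11.79 in lal-/- cells, against 10.86 and 11.09 in lal+/+ cells, which differ by 0.90 (SE 0.14, adjusted p = 0.00345), below the threshold. It passed 2-fold with a common median (1.34), with the values as deposited (1.16) and without lal-/- replicate 2 (1.04). Rab9, of the return from late endosomes to the Golgi, had 0.19 (adjusted p = 0.336), and passed the adjusted p under 2-fold with a common median (0.80) and as deposited (0.62). Rab24, a divergent Rab linked to autophagosomes, read 11.54 and 11.43 in lal-/- cells, against 10.21 and 10.15 in lal+/+ cells, and was 2.48-fold higher (log2 fold change 1.31, SE 0.12, adjusted p = 4.21e-04). The 7 endosomal genes Rab4a, Rab7b, Rab9b, Rab12, Rab15, Rab17 and Rab25 lay below the silent level in both genotypes, with log2 fold changes between 0.02 and 0.71.

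Of the granule Rabs 3 of 12 were higher. Rab3d, known from secretory granules of exocrine and blood cells, read 8.82 and 8.79 in lal-/- cells, against 6.12 and 5.82 in lal+/+ cells, which lay below the silent level. It was at least 4.06-fold higher (fitted log2 fold change 2.83, SE 0.14, adjusted p = 6.64e-05). Rab37, known from mast cell granules and regulated secretion, read 9.06 and 9.02 in lal-/- cells, against 7.02 and 6.85 in lal+/+ cells, and was 4.30-fold higher (log2 fold change 2.10, SE 0.13, adjusted p = 1.01e-04). Rab27a, which docks granules at the plasma membrane and is needed for their release from neutrophils, read 10.98 and 10.91 in lal-/- cells, against 9.84 and 9.52 in lal+/+ cells, and was 2.40-fold higher (log2 fold change 1.26, SE 0.15, adjusted p = 9.70e-04). In these 3 genes no lal+/+ array reached the lal-/- arrays. The primary granule markers (5 of 5 higher) and secondary granule markers (5 of 7 higher) rose on the same arrays, and their part in the rise of the granule Rabs was not tested.

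The paralogs Rab3a, Rab3b and Rab3c, known from synaptic and endocrine vesicles, and Rab27b, Rab26 and Rab38 lay below the silent level in both genotypes, with log2 fold changes between -0.46 and 0.28. Rab27b had 0.15 (adjusted p = 0.401), which was -0.06 with the values as deposited. Rab32, of lysosome-related organelles, had 0.76 (adjusted p = 0.00751) and Rab29, of the same subfamily, had 0.64 (adjusted p = 0.00736), both under 2-fold, while Rab32 passed with a common median (1.34) and with the values as deposited (1.16). Rab44, a large Rab known from granulocytes and mast cells, had 0.26 (adjusted p = 0.158) and read 7.80 and 7.78 in lal-/- cells, against 7.47 and 7.59 in lal+/+ cells. It passed the adjusted p under 2-fold with a common median (0.60) and as deposited (0.42).

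Of the members with other roles, Rab28 and Rab23 are known from cilia, and Rab23 also as a brake on Hedgehog signaling. Rab28 read 8.75 and 8.68 in lal-/- cells, against 6.88 and 6.84 in lal+/+ cells, and was 3.61-fold higher (log2 fold change 1.85, SE 0.12, adjusted p = 1.22e-04). Rab23 read 8.76 and 8.65 in lal-/- cells, against 7.50 and 7.43 in lal+/+ cells, and was 2.36-fold higher (1.24, SE 0.12, adjusted p = 5.46e-04). The other 7 (Rab19, Rab36, Rab39, Rab39b, Rab40b, Rab40c and Rab42) were not called, with log2 fold changes between -0.49 and 0.55, and 6 of them lay below the silent level in both genotypes.

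Genes that load, prenylate, activate and switch off Rab proteins, and those that act after them, were counted from lists by role. Of 7 genes for prenylation, escort and GDP dissociation 1 was higher and 1 lower. Rabif, a chaperone of nucleotide-free Rabs, rose by 1.51 on the log2 scale (SE 0.13, adjusted p = 3.00e-04), at 9.80 and 9.84 in lal-/- cells, against 8.22 and 8.41 in lal+/+ cells. Rabggtb, the beta subunit of the enzyme that attaches the prenyl tails, fell by 1.05 (SE 0.13, adjusted p = 0.00119), at 8.18 and 8.19 in lal-/- cells, against 9.14 and 9.32 in lal+/+ cells. The genotypes did not overlap in either.

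Of 33 exchange factors 4 were higher and 2 lower, with a median of 0.13, and of 36 activating proteins 3 were higher and 1 lower, with a median of 0.38. Among all genes 7.56% were higher and 3.24% lower, and the counts of these lists, which are small, lie near those shares. Rin2, a Rab5 exchange factor, had a fitted value of 2.22 (SE 0.16, adjusted p = 1.73e-04). The other higher exchange factors were Rabgef1 (1.18), also of Rab5, Dennd2a (1.10) and Rinl (1.04), given in no order of size. Dennd4a, an exchange factor of Rab10, fell by 2.13 (SE 0.14, adjusted p = 1.25e-04) and Dennd5b fell by 1.42. These values come from the brightest of 9 probe sets of Dennd4a and of 2 of Dennd5b, and the others are not given here. The higher activating proteins were Tbc1d2b (1.70), Tbc1d8 (1.52) and Tbc1d25 (1.09), which switches off Rab33b, and Usp6nl, which acts on Rab5, was lower (-1.78, SE 0.38, adjusted p = 0.0131). In lal+/+ cells both arrays lay below the silent level for Rin2, Rabgef1, Tbc1d2b and Tbc1d25, which were at least 3.13, 1.75, 2.21 and 1.10-fold higher in lal-/- cells. Rinl read 7.88 and 7.66 in lal-/- cells, against 6.36 and 7.10 in lal+/+ cells. Of the lal+/+ arrays 1 lay below the silent level, as did their mean, and Rinl was at least 1.98-fold higher. Dennd5b lay below it in lal-/- cells and was at least 1.60-fold lower, and for Dennd2a no bound above 1 could be had. The lal-/- arrays of Usp6nl differed widely, at 5.77 and 7.09, against 8.34 and 8.07 in lal+/+ cells.

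Among effectors, 1 of 12 secretory, 2 of 20 endosomal and 1 of 14 granule genes were higher, and 1 endosomal gene was lower, shares near the 7.56% higher and 3.24% lower among all genes. Unc13d, which primes granules for fusion with Rab27a, rose by 1.09 on the log2 scale (SE 0.15, adjusted p = 0.00172, at least 1.36-fold as lal+/+ cells lay below the silent level), and Exoc6, of the exocyst, by 1.20 (adjusted p = 7.43e-04). Rilpl2, a relative of the Rab7 effector Rilp, rose by 1.52 (adjusted p = 0.00161) and Ocrl, an inositol phosphatase on endosomes, by 1.02 (adjusted p = 0.00277), with lal+/+ cells below the silent level and no bound above 1. Rabep1, a Rab5 effector, fell by 1.15 (SE 0.20, adjusted p = 0.00507), at 7.10 and 7.37 in lal-/- cells, against 8.64 and 8.13 in lal+/+ cells. The medians of these lists were 0.38 (secretory), 0.22 (endosomal) and 0.04 (granule), beside 0.08 over all genes.

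**Figure D3:**
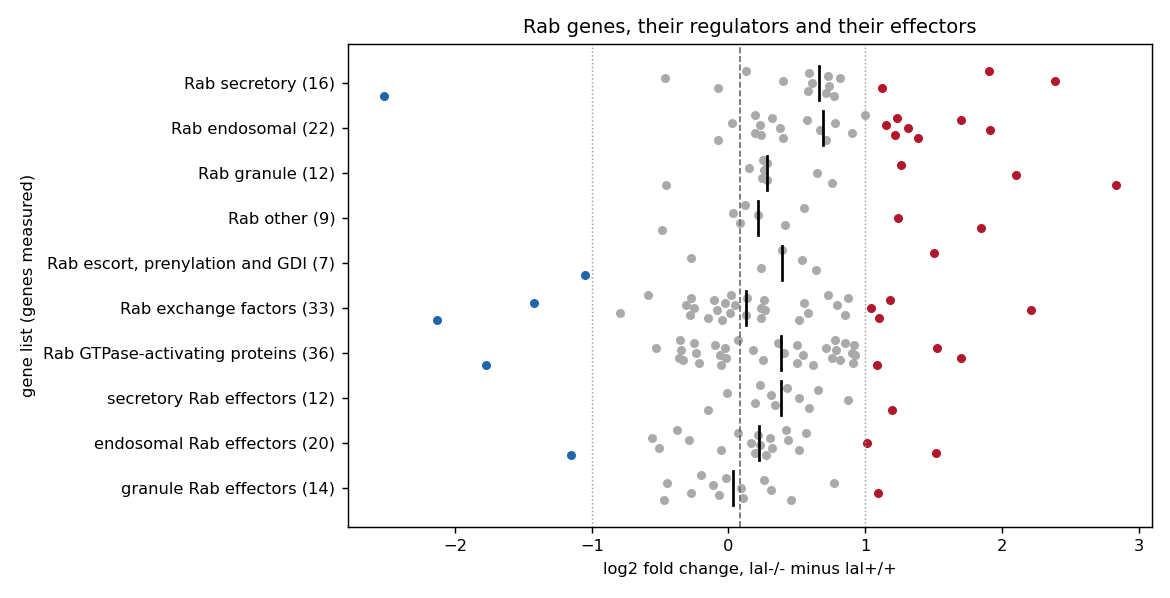
Log2 fold change (lal-/- minus lal+/+) of each measured gene of the Rab groups and of 6 lists of regulators and effectors, red for higher, blue for lower and gray for not called, with a black bar at the median of each list, a dashed line at the median of all genes and dotted lines at 2-fold. The secretory and endosomal Rabs have medians of 0.66 and 0.69, and the granule effectors lie around the median of all genes.

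The number of higher Rab genes followed the scaling of the arrays and so did the share among all genes. With all arrays set to the same median 24 Rab genes were higher, as were 13.1% of all genes, and with the values as deposited 21, beside 10.1% of all genes. The 15 genes named above were among them in both settings, and Rab30 stayed the 1 lower gene. Of all calls, 70.0% were upward in the main setting, 84.9% with a common median and 76.1% as deposited, and for Rab genes the split was 15 to 1, 24 to 1 and 21 to 1.

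**Figure D4:**
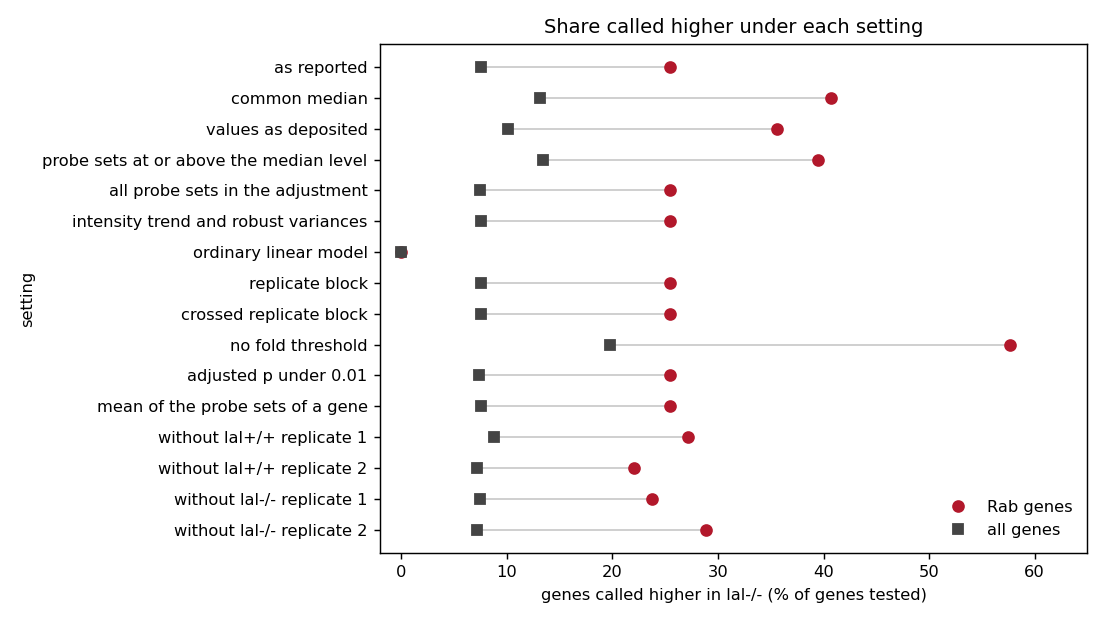
Share of Rab genes (red circles) and of all genes (gray squares) called higher in lal-/- cells under each setting, in percent of the genes tested. The circle lies to the right of the square in each setting except the ordinary linear model, in which both are at 0.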

How the data were processed

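Expression was measured on 4 arrays of Ly6G+ bone marrow cells, 2 from lal-/- and 2 from lal+/+ mice. RMA in Partek Genomics Suite was run by the authors on the scans, and the deposited values are log2 levels of 35557 probe sets (GCOS 1.1 is named in the submitters' processing notes). Arrays give no read depth, so their number limits the precision. Column medians differed by up to 0.208, above a limit of 0.1, so the columns were quantile normalized. Probe sets were named from the platform's gene table, and 21789 name 1 gene, of which 21698 matched a current symbol by gene ID. None of the probe sets naming several genes held a Rab gene, and 1 listed Rab, Rab41, had no probe set of its own here.

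Genotypes were compared with limma 3.58.1 in R 4.3.3 (4.83 prior and 2 residual degrees of freedom). The tissue term of the study's model cannot be fitted to 1 tissue. All 2154 genes with a 2-fold change also passed the adjusted p, so the fold threshold set the calls. The procedure was tested on simulated data. Members and lists were chosen with earlier results of these data known. Every member could be named, called members are given by array, and up to 5 called genes each way stand for a list. Alternatives covered scaling, filters, variance models, a replicate block, thresholds, probe set averaging and arrays left out. Same-numbered arrays deviated in opposite ways (r = -0.18 across probe sets, which are not independent), so the numbers were not taken to pair the arrays.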

Additional observations from a re-analysis of the deposited data

How the results depend on the processing

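The 15 higher and the 1 lower Rab gene were called again under 9 other settings. These were a common median, the deposited values, dim probe sets left out, unnamed probe sets kept in the adjustment, robust variances with a trend on intensity, no fold threshold, an adjusted p below 0.01, probe sets averaged per gene, and a replicate block (15 higher and 1 lower). A crossed block, added after seeing the data, also gave 15 and 1. With a common median the higher genes numbered 24 in all, 7 secretory and 11 endosomal, and as deposited 5 secretory. With no fold threshold they were 34 in all, 12 secretory, 14 endosomal and 5 granule, beside 19.8% of all genes. An ordinary linear model of genotype, with 2 residual degrees of freedom, called 0 Rab genes in either direction and in each step, where limma called 16. In that model 31 of 59 Rab genes and 5691 of all 19938 genes had an unadjusted p below 0.05. Of the higher genes, Rab22a, Rab35 and Rab43 fell under the fold threshold without lal+/+ replicate 2 (0.94, 0.96 and 0.96). Over all genes the median change was 0.08, against 0.12 with a common median and -0.05 as deposited. The sign turned for Rab10 (0.56 with a common median, 0.38 as deposited), Rab14 (0.52 and 0.34) and Rab27b (-0.060 as deposited). The cause of these changes was not tested. Dim probe sets, which include 22 Rab genes in both genotypes, limit what can be seen.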

Other observations

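Small GTPases close to the Rab family, which the naming rule left out, were looked up after the data were seen. Cracr2a, a large Rab of immune cells, had a log2 fold change of 0.63 (SE 0.12, adjusted p = 0.00766 from limma), at 7.38 and 7.34 in lal-/- cells, against 6.76 and 6.69 in lal+/+ cells. Rabl3 had 0.81 (adjusted p = 0.00450) and Rabl6 0.55 (adjusted p = 0.0132), while Ran, the GTPase of nuclear transport, had -0.19 (adjusted p = 0.335). The lal+/+ means of Cracr2a, Rabl3 and Rabl6 lay below the level of silent genes, so the size of their change is not settled. None of the 8 GTPases looked up passed the 2-fold threshold. Rab5if, which is named after Rab5 but is no GTPase, was higher in lal-/- cells by 1.06 (SE 0.15, adjusted p = 0.00228), at 11.27 and 11.58, against 10.44 and 10.28 in lal+/+ cells.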
